A study of Sus scrofa with 6 samples.

Results

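miR-103 and miR-107 are closely related microRNAs (miRNAs), short RNAs that repress messenger RNAs through pairing with their seed, bases 2 to 8. They were taken from the labelled sheet by name: after exact duplicate lines were dropped, every entry whose pig name, without species prefix and suffix, was miR-103 or miR-107 was kept. This gave 2 of 245 entries, 1 per name, and the opposite arms of their hairpins had no entry there. The samples, all from Rongchang pigs, were 3 libraries labelled milk and 3 labelled milk exosome, the latter being membrane-bound vesicles that cells secrete. No treatment, age or genotype is given in the sample labels, and nothing states how the exosomes were isolated or whether a milk and an exosome sample of equal number came from the same animal. The design text speaks of 3 individuals and also of piglet small intestine, which no sample label names. P-values thus reflect how far these samples spread, which may in part be technical. The title of the series sets the miRNAs of milk against those of its exosomes, and this was the comparison made for both members.

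In mammals the genes of miR-103 and miR-107 lie in introns of pantothenate kinase genes, which encode the enzymes that start the synthesis of coenzyme A, the carrier of fatty acids in lipid metabolism. In mice both miRNAs are known to repress caveolin-1 in fat cells and to lower insulin sensitivity. Milk fat is made by the epithelial cells of the mammary gland, and milk carries miRNAs both free of vesicles and inside them. The pig RefSeq table (assembly Sscrofa11.1) listed 3 genes for the pair. MIR103-1 lay within the span of PANK3, MIR103-2 within that of PANK2, and MIR107 within those of PANK1 and 1 other locus. The sheet holds no coordinates, so its values cannot be assigned to a locus, and miR-103 stood on 2 identical lines.

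The sequences are shown because they decide what the names can separate. They are copied from the sheet, in DNA letters from 5′ to 3′, with the seed in capitals.
miR-103: aGCAGCATtgtacagggctatga
miR-107: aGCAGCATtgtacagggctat
The miR-103 sequence has 23 bases and the miR-107 sequence 21. The latter carries a suffix, which no label explains and which is read here as 2 bases missing at its 3′ end. Its 21 bases are identical to the first 21 of miR-103, so the entry named miR-107 is also the sequence of a miR-103 molecule that is 2 bases shorter. The entries differ in length, by the last 2 bases of miR-103, and in name, and below "miR-107" means this 21-base sequence. In the sheet 7 of 238 distinct sequences begin a longer sequence listed under another name.

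The seed of the pair, GCAGCAT, occurred in 2 of 238 listed sequences, which are these members (0.840%). Both belong to a wider group with miR-15 and miR-16, whose members share the letters AGCAGC near the 5′ end. Read on the listed strand, AGCAGC began at base 1 or 2 in 7 of 238 sequences (2.94%), at base 1 in the pair and at base 2 in the other 5. These 5, shown to place the shift of the shared letters by a base, have the seed AGCAGCA.
miR-15a: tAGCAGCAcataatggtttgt
miR-15b: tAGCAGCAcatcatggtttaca
miR-16: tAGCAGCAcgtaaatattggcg
miR-195: tAGCAGCAcggaaatattggc
miR-497: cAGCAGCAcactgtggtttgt
The pair therefore differs from the rest of its group in the seed, and its members do not differ from each other in any of the 21 bases they share.

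The libraries differed in depth more than the members did between groups. Depth was estimated by letting the commonest nonzero value of a library stand for 1 read. This put 9124580 read equivalents behind milk 1, 8020867 behind milk exosome 3, and 1901 to 9313 behind the other 4, called shallow here. In milk 1 and milk exosome 3 the erythrocyte markers (miR-451, miR-144, miR-486 and miR-16) held 90.4% and 89.9% of the listed signal, against 2.92% to 12.4% in the shallow libraries, with miR-144 at 0 in milk exosome 1 and milk exosome 2. The muscle markers (6 miRNAs, led by miR-1) held 55.6% of milk exosome 2 and 0.00261% to 10.7% of the other libraries. The leukocyte markers, led by miR-142-5p, held 0.205% to 3.24%. Of these 4 markers 3 had an entry, and none of the entries was at 0. The epithelial and mammary markers, which would define the gland's own cells, held 0.000997% to 1.21%. In milk they held 0.000997%, 0.345% and 1.21%, and in exosomes 0.397%, 0.0256% and 0.00267%. miR-429 was at 0 in milk 2, milk exosome 2 and milk exosome 3, and miR-182 and miR-183 in milk exosome 2, while the listed names held 4 of the 8 markers. Milk 1 and milk exosome 3 stand apart in depth and in erythrocyte signal and carry different group labels, so each result on the pair is also given for the shallow libraries alone. The part of depth and of these other cell types in the values of the pair was not tested.

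miR-103, the longer and more abundant sequence, was present in each of the 6 libraries. Its deposited normalized abundance was 743 in milk 1, 112 in milk 2 and 83.0 in milk 3. In exosomes it was 285 in replicate 1, 78.6 in replicate 2 and 901 in replicate 3. The highest values were thus in milk 1 and milk exosome 3, the lowest in milk exosome 2 and milk 3, and the groups overlapped. The mean was 313 ± 373 (SD, n = 3) in milk and 422 ± 428 (SD, n = 3) in exosomes, and the highest library was 11.5 times the lowest. Among the shallow libraries this range was 3.63-fold. The number of reads behind a value limits how closely it is known: miR-103 rested on 9788 and 9621 rounded read equivalents in milk 1 and milk exosome 3, on 32 in milk exosome 1, and on 8, 6 and 4 in milk 2, milk 3 and milk exosome 2.

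miR-107, the 21-base sequence, was lower than miR-103 in each library. Its abundance was 112 in milk 1, 62.1 in milk 2 and 27.7 in milk 3, and in exosomes 195, 19.7 and 99.0 in replicates 1 to 3. Milk exosome 1, a shallow library, was the highest, and milk exosome 2 the lowest with a value worth 1 read. Unlike miR-103, it did not set milk 1 and milk exosome 3 above the others. The mean was 67.4 ± 42.5 (SD, n = 3) in milk and 105 ± 87.9 (SD, n = 3) in exosomes, and the ranges overlapped. The highest library was 9.93 times the lowest. Both of these were shallow, so the range among the shallow libraries was the same 9.93-fold. The values of milk 2, milk 3 and milk exosome 1 rested on 4, 2 and 22 rounded read equivalents, those of milk 1 and milk exosome 3 on 1479 and 1057.

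**Figure D1:**
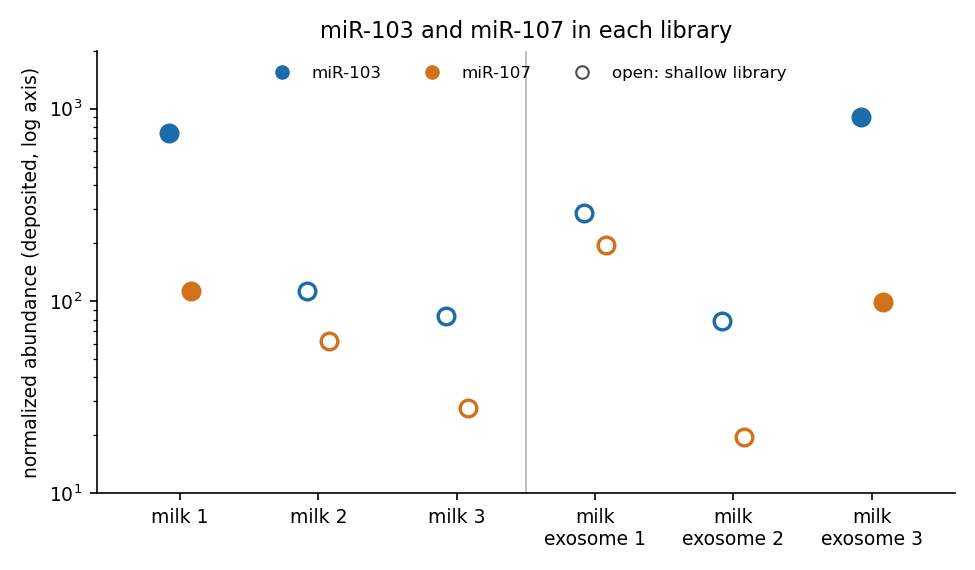
Deposited normalized abundance (log axis) of miR-103 (blue) and miR-107 (orange) in the 3 milk and 3 milk exosome libraries, 1 point per library and member, open for the 4 shallow libraries. miR-103 is highest in milk 1 (743) and milk exosome 3 (901), miR-107 in milk exosome 1 (195), and neither member separates the groups.

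The deposited values of the pair were often not whole reads. Of the 12 values, 4 were whole within 0.01 reads, and the other 8 had a fractional part of 0.167, 0.333, 0.667 or 0.833 of a read. For example, milk exosome 1 held 31.7 read equivalents of miR-103 and 21.7 of miR-107. The step of the processing that gave fractions is not given in the sources used here.

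By abundance within each library, where rank 1 is the highest, both members ranked between 28 and 87. Among the 238 sequences miR-103 ranked 29 in milk 1 and 28 in milk exosome 3. In the shallow libraries it ranked from 45 (milk 3) to 69 (milk 2). miR-107 ranked from 63 (milk exosome 1) to 87 (milk 2), with 64 in milk 1 and 71 in milk exosome 3.

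Shares of the listed signal ordered the libraries differently from the deposited values. Each share is followed by its exact Clopper-Pearson 95% interval, computed from rounded read equivalents. The libraries carry no stated molecular identifiers, and the intervals cover counting error only. miR-103 held 0.340% (0.235% to 0.485%) of milk exosome 1, 0.316% (0.116% to 0.686%) of milk 3 and 0.180% (0.0795% to 0.362%) of milk 2. It held 0.120% (0.118% to 0.122%) of milk exosome 3, 0.107% (0.105% to 0.109%) of milk 1 and 0.102% (0.0279% to 0.262%) of milk exosome 2. In this order the intervals of neighbouring libraries overlapped except those of milk exosome 3 and milk 1, the deepest libraries, where the log2 difference of the deposited values was 0.28. Milk exosome 1 lay above both of these beyond counting error, and milk 3 lay above milk 1 but not above milk exosome 3.

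For miR-107 the share was 0.233% (0.148% to 0.357%) in milk exosome 1, 0.105% (0.0127% to 0.380%) in milk 3 and 0.0997% (0.0251% to 0.235%) in milk 2. It was 0.0256% (0.000648% to 0.142%) in milk exosome 2, 0.0162% (0.0154% to 0.0171%) in milk 1 and 0.0132% (0.0124% to 0.0140%) in milk exosome 3. Milk exosome 1 and milk 2 lay above milk 1 and milk exosome 3 beyond counting error, whereas the intervals of milk 3 and milk exosome 2 reached down to both. Between milk exosome 3 and milk 1 the deposited miR-107 values differed by -0.18 on the log2 scale, the sign opposite to that of miR-103.

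Because the entries share their first 21 bases, the pair was also summed. The sum held 0.123%, 0.280% and 0.421% of the listed signal in milk 1 to 3 and 0.573%, 0.128% and 0.133% in milk exosome 1 to 3. The highest share was in an exosome library and the lowest in a milk library, and the groups overlapped. Group means were 0.275% ± 0.149 (SD, n = 3) in milk and 0.278% ± 0.255 (SD, n = 3) in exosomes, a difference of 0.00315 percentage points (two-sided exact permutation test, p = 0.90, where the smallest possible p is 0.1). In the shallow libraries alone the means were 0.350% in both groups (exact permutation p = 1, n = 2 per group, smallest possible p 0.333). The difference changed sign without milk 1 (-0.0725 percentage points) and without milk exosome 1 (-0.144), so its direction rests on single libraries.

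The erythrocyte signal is the larger part of the denominator in milk 1 and milk exosome 3. With the 4 erythrocyte markers left out of the denominator, the pair held 1.29% of milk 1 and 1.32% of milk exosome 3, above the 0.132% to 0.598% of the shallow libraries. Most of this was miR-103, at 1.12% and 1.19% against 0.105% to 0.355%. miR-107, at 0.170% and 0.131%, lay inside the 0.0263% to 0.243% of the shallow libraries. On this scale the means of the summed share were 0.694% ± 0.524 (SD, n = 3) in milk and 0.684% ± 0.60 (SD, n = 3) in exosomes, a difference of -0.0104 percentage points (exact permutation p = 1). The place of milk 1 and milk exosome 3 in the order of miR-103 thus depends on the denominator, and the groups overlap on both.

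**Figure D2:**
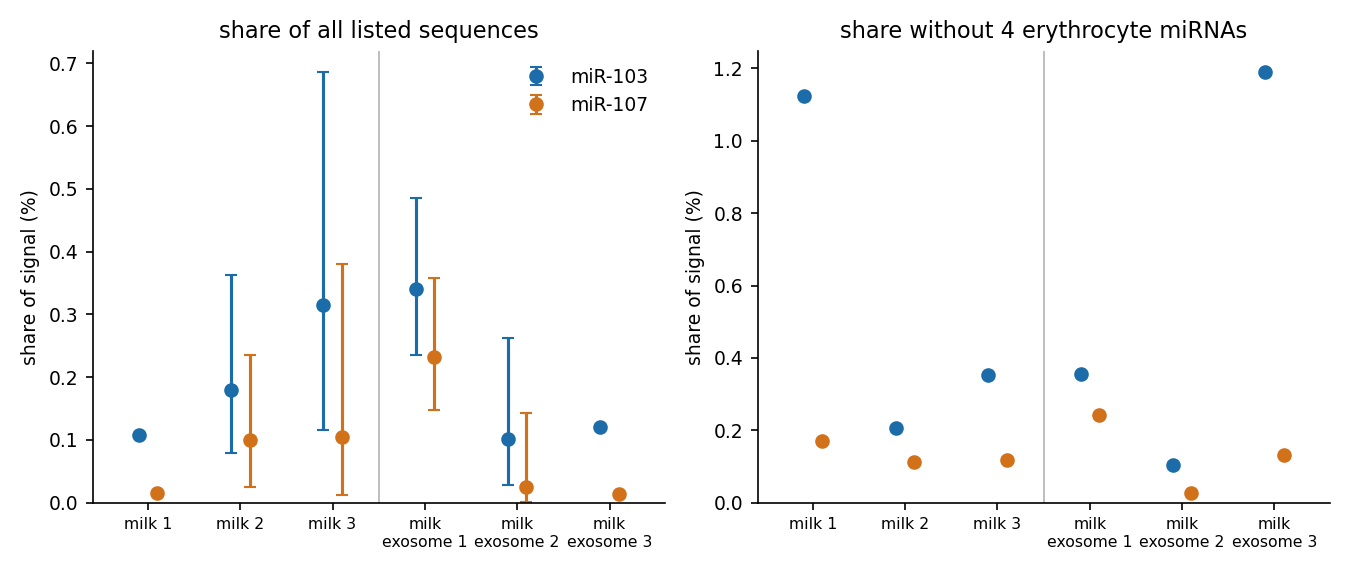
Share of signal (%) of miR-103 (blue) and miR-107 (orange) in each library, on the left of all 238 listed sequences with exact 95% binomial intervals, on the right with the 4 erythrocyte markers taken out of the denominator. On the left milk exosome 1 is highest for both members, and on the right milk 1 (1.12%) and milk exosome 3 (1.19%) are highest for miR-103.

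A ratio within a library does not depend on its scaling. The ratio of miR-103 to miR-107 was 6.62 in milk 1, 1.81 in milk 2 and 3.0 in milk 3, and 1.46, 4.0 and 9.10 in milk exosome 1 to 3. It was highest in milk exosome 3 and milk 1 and lowest in milk exosome 1 and milk 2, so each group held high and low libraries. The mean log2 ratio was 1.72 ± 0.94 (SD, n = 3) in milk and 1.91 ± 1.32 (SD, n = 3) in exosomes, a difference of 0.19 (two-sided exact permutation p = 0.80). In the shallow libraries alone the difference was 0.05 (exact permutation p = 1, n = 2 per group). Without milk 2 it was -0.24 and without milk exosome 3 it was -0.45, the other sign.

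Counting error is large for this ratio in most libraries. On rounded read equivalents miR-103 made up 86.9% (95% interval 86.2% to 87.5%) of the pair in milk 1 and 90.1% (89.5% to 90.7%) in milk exosome 3, which differed beyond counting error. In milk exosome 1 it made up 59.3% (45.0% to 72.4%) of 54 read equivalents, an interval that lies below those of both deep libraries. In milk 2 (66.7%, 34.9% to 90.1%), milk 3 (75%, 34.9% to 96.8%) and milk exosome 2 (80%, 28.4% to 99.5%), with 12, 8 and 5 read equivalents of the pair, a difference from milk 1 was not detectable at this depth. Since the 21-base sequence fits both names, this share is that of the 23-base form among the listed forms and not of miR-103 over miR-107 molecules.

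**Figure D3:**
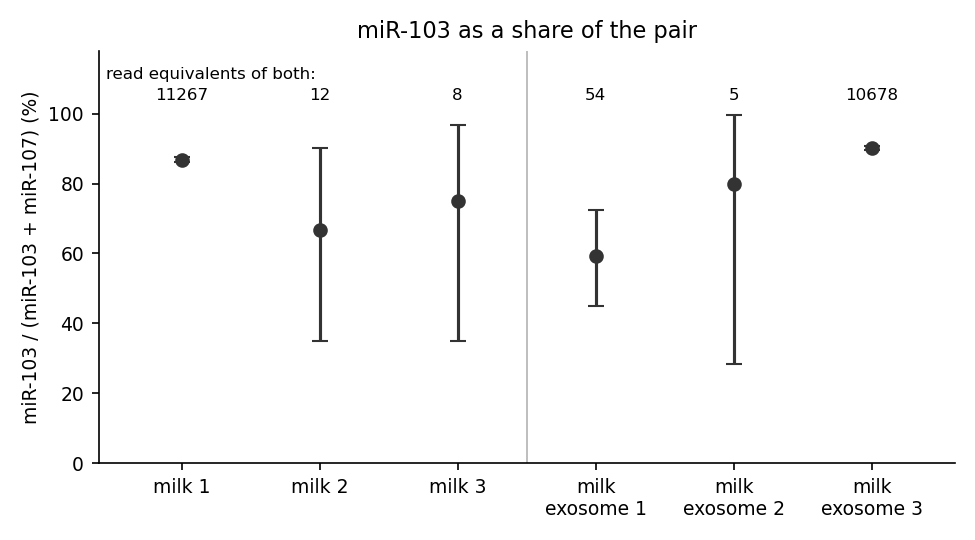
miR-103 as a percent of the summed miR-103 and miR-107 read equivalents in each library, with exact 95% binomial intervals and the number of read equivalents printed above. The deep libraries milk 1 (86.9%) and milk exosome 3 (90.1%) have narrow intervals, and of the shallow ones milk exosome 1 (59.3%) lies below them.

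Milk exosome was compared with milk over all listed miRNAs with limma on log2(value + 1). Both members were among the 141 entries that reached a value of 10 in no fewer than 3 libraries. The log2 fold change was 0.51 for miR-103 (SE 1.44, with n = 3 in each group), with a 95% interval from -2.84 to 3.86, which did not pass (limma, Benjamini-Hochberg adjusted p = 0.997). For miR-107 it was 0.33 (SE 1.49), with an interval from -3.14 to 3.79 (adjusted p = 0.997). The median over all 141 entries was 0.34, and the distance from it was 0.17 for miR-103 and -0.02 for miR-107. The intervals leave room for large changes in either direction, and a p above the threshold does not show that the groups are alike. In bulk RNA fewer source cells or vesicles and less of a miRNA in each cannot be told apart.

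The count of members that passed was 0 of 2, against 0 of 141 over all entries (0%) at an adjusted p of 0.05 and also 0 of 141 (0%) at an unadjusted p of 0.05 in limma. The ranges of the groups did not overlap for 0 of 2 members, against 2 of 141 entries (1.42%). In size of log2 fold change miR-103 ranked 87 and miR-107 113 of 141, and in smallness of standard error they ranked 30 and 33. On the deposited scale the SE of both members was thus below the median of 1.94 over all entries. After rescaling of the libraries to a common total the SE was 1.91 for miR-103 and 2.57 for miR-107.

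Under rescaling of the libraries to a common total the log2 fold changes were -0.18 for miR-103 and -0.37 for miR-107, with the median of all entries at -0.30. Relative to that median they were 0.12 and -0.07. In the shallow libraries alone they were 0.63 (SE 1.19) and 0.58 (SE 1.70), with a median of 0.39. Single libraries turned the sign. Without milk 3 both members were negative, at -0.08 and -0.19. Without milk exosome 1 miR-107 was at -0.38, and without milk exosome 3 miR-103 was at -0.35. Other libraries moved the value without turning it: without milk 1 miR-103 was at 1.49 and miR-107 at 0.80, and without milk exosome 2 they were at 1.40 and 1.25. Without milk 2 miR-103 was at 0.13 and miR-107 at 0.38. The distance from the median of all entries moved as well. For miR-103 it was 1.00 without milk 1, 0.80 without milk exosome 1, 0.40 without milk exosome 2, 0.05 without milk 3, -0.35 without milk 2 and -0.44 without milk exosome 3. For miR-107 it ran from -0.10 (without milk 2) to 0.31 (without milk 1).

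**Figure D4:**
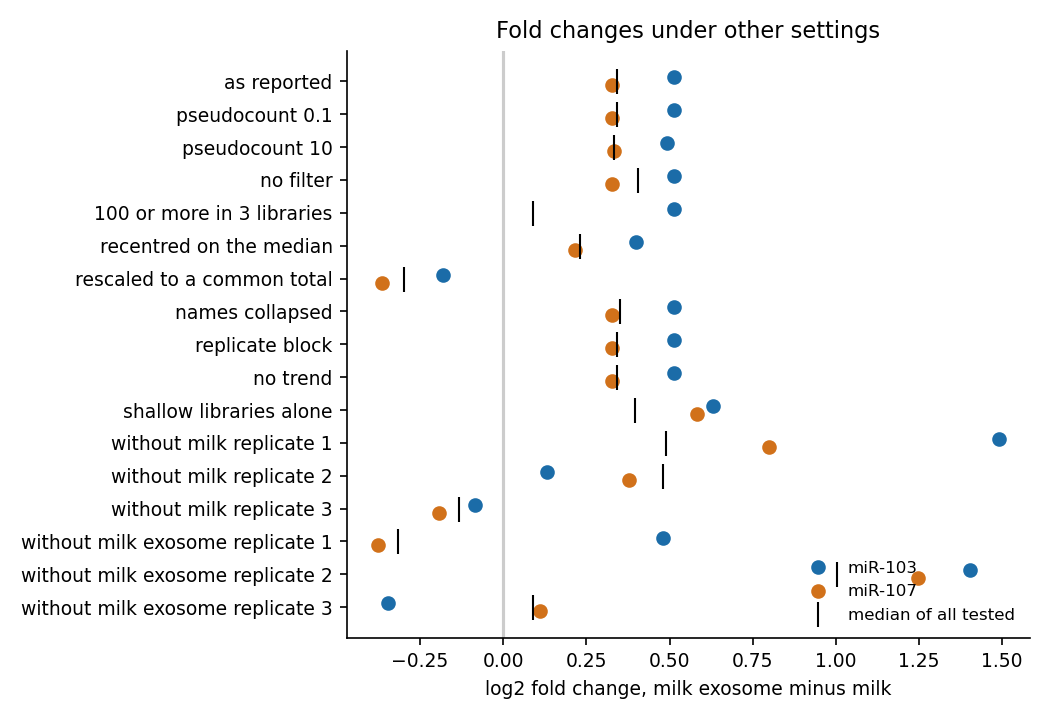
Log2 fold change (milk exosome minus milk) of miR-103 (blue) and miR-107 (orange) as reported and under each other setting of the fit, with the median of all entries tested as a black bar. The points run from -0.38 to 1.49 on either side of 0, and miR-107 has no point where 100 or more was required in 3 libraries because it was then not tested.

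The other members of the wider group, among which miR-15 and miR-16 are known to restrain the cell cycle, were compared with the pair as a list of 8. Of these, 5 were listed and 4 tested, and 0 of 4 passed in limma. Of the tested members 2 had a positive log2 fold change and 2 a negative one, with a median of -0.28 against 0.34 for all entries. Over all entries 84 of 141 were positive. Under rescaling to a common total 1 was positive and 3 negative, with a median of -0.98 against -0.30, and 48 of all 141 entries were positive. miR-16, the most abundant and also an erythrocyte marker, lay at a log2 fold change of -0.92 (SE 2.23). miR-497, which had the largest change, was at 1.45 (SE 1.85) on values of at most 19.7. Without milk 1 and without milk exosome 2 all 4 were positive, with medians of 0.78 and 1.44, against 0.49 and 1.00 for all entries. In these fits 91 and 110 of all 141 entries were positive. Without milk 3 and without milk exosome 3, 1 was positive and 3 were negative, with medians of -1.61 and -1.78, against -0.13 and 0.09. Here 62 and 73 of all 141 entries were positive. Summed over the listed sequences these miRNAs held 5.20%, 8.45% and 3.16% of milk 1 to 3 and 7.49%, 0.307% and 4.88% of exosomes 1 to 3. The sum was lowest in milk exosome 2, where the summed share of miR-103 and miR-107 was 0.128%. The pair's share was lower still in milk 1, at 0.123%. It was highest in milk exosome 1, at 0.573%, whereas the sum of the other members was highest in milk 2.

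A list of 20 other miRNAs known from lipid metabolism or fat cells gave 11 tested entries, of which 0 passed in limma. Of these 6 were positive and 5 negative, against 84 positive and 57 negative over all 141 entries. The median log2 fold change was 0.47 against 0.34 for all entries. Under rescaling to a common total 4 were positive and 7 negative, against 48 and 93 over all entries, with a median of -0.22 against -0.30. With any 1 library left out, the list median lay below that of all entries, by a distance of -0.05 (without milk 1) to -0.47 (without milk exosome 2). Without milk 3, milk exosome 1 or milk exosome 3 the list median was itself negative, at -0.45, -0.56 and -0.20, against -0.13, -0.32 and 0.09 for all entries. miR-27a, which represses fat cell formation and was the most abundant of the list, had an abundance of 820, 3133 and 235 in milk 1 to 3 and of 10965, 177 and 835 in exosomes 1 to 3. Its log2 fold change was 0.47 (SE 1.76), and its highest value was in milk exosome 1, as for miR-107. miR-128, which had the largest change of the list, was at 2.12 (SE 1.58, adjusted p = 0.997 in limma).

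**Figure D5:**
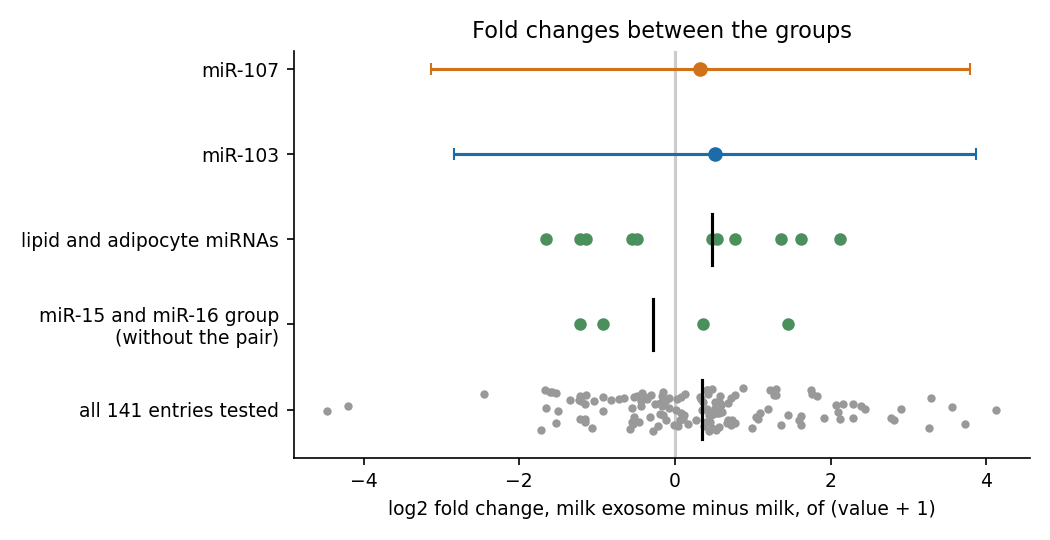
Log2 fold change of (value + 1), milk exosome minus milk, for miR-103 and miR-107 with 95% limma intervals, for the tested members of both lists (green) and for all 141 entries (grey, spread vertically for visibility), with the median of each row of several points as a black bar. The members lie at 0.51 and 0.33, near the median of all entries at 0.34, with intervals that cross 0.

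The entries whose levels most resembled each member over the 6 libraries were different for each. The measure was Pearson's r of log2(value + 1), given as a description. All entries share the libraries, their depth and the erythrocyte signal of milk 1 and milk exosome 3, and the part of these in r was not tested. For miR-103 the nearest were miR-335 (r = 0.993, Spearman 0.941), the sequence listed both as miR-30a-5p and miR-30e-5p (0.976, Spearman 1), and 2 of the listed forms of miR-339 (0.959 and 0.949, Spearman 0.928 and 0.886). miR-335, also on the lipid list, had 125 and 191 in milk 1 and milk exosome 3, 18.0 in the first exosome library and a listed value of 0 in the other 3, so its resemblance rests on few libraries. For miR-107 the nearest were miR-140-3p (0.963, Spearman 1), miR-324 (0.95, Spearman 0.928), miR-1306-5p (0.947, Spearman 0.986), miR-101 (0.941, Spearman 0.886) and miR-140-5p (0.934, Spearman 0.754). miR-140-3p had an abundance of 936, 387 and 55.3 in milk 1 to 3 and of 1036, 19.7 and 824 in exosomes 1 to 3. By contrast, miR-324, miR-1306-5p and miR-140-5p were at 0 in milk 3 and milk exosome 2, both shallow. The same held for the miR-339 form with r = 0.959. The resemblance of these entries therefore rests in part on values of 0.

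The members were not each other's nearest over all libraries. miR-107 ranked 37 among the entries by likeness to miR-103 (r = 0.756, Spearman 0.771), and miR-103 ranked 48 by likeness to miR-107. Over the 4 shallow libraries miR-107 ranked 1 for miR-103 (r = 0.974), followed by miR-24-3p (0.969), miR-335 (0.965), miR-423-5p (0.946) and the shorter of these forms of miR-339 (0.945). For miR-107 the order was miR-24-3p (0.999), the sequence listed as miR-30a-5p and miR-30e-5p (0.993), the same form of miR-339 (0.984) and miR-103 (0.974). With 4 points, 3 of which rest on 8 reads or fewer of miR-103, these ranks are a description of these libraries.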

How the data were processed

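Small RNA was sequenced from 3 milk and 3 milk exosome samples of pigs. Per the labels' protocols, RNA was extracted with Trizol, TruSeq Small RNA libraries followed, and an Illumina HiSeq instrument read 36 bp from 1 end. The deposited values are a signal, a miRNA abundance that the authors normalized, per library and not pooled. How reads were aligned, annotated and normalized is not given in the sources used here. As these are no counts, no count model was fitted. The 6 value columns of another sheet match no sample label and were not used.

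The 279 lines held 245 distinct entries and 238 sequences. Library depth was estimated from the most frequent value above 0, taken as 1 read, and libraries above the geometric mean of the lowest and highest depth, 131704 read equivalents, were called deep. Shares are of the sum over distinct sequences. The groups were compared in limma 3.58.1 (R 4.3.3) with a trend on mean abundance. The fit used log2(value + 1) and the entries that reached 10 in no fewer than 3 libraries. P-values were adjusted by Benjamini-Hochberg over 141 entries with a threshold of 0.05. The median residual SD of these entries was 2.50 on the log2 scale. How large a change the fit could detect at this spread was not tested. The pseudocount of 1 is small beside the value of a read in the shallow libraries (9.01 to 19.7) and larger than it in the deep ones (0.0759 and 0.0937). The summed share and the log2 ratio were each compared between milk exosome and milk with two-sided exact permutation tests. These ran in Python 3.11.15 with numpy 2.4.6, pandas 2.3.3 and scipy 1.17.1, and figures were drawn with matplotlib 3.10.9.

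The members and lists were chosen with earlier results of these data known. All members were named, with the 5 entries most like each over the 6 and over the shallow libraries, and from each list those with the highest mean and the largest change. For the erythrocyte, muscle, leukocyte and epithelial marker lists, the members with the largest change were miR-144, miR-206, miR-155-5p and miR-182, and the most abundant were miR-451, miR-1, miR-142-5p and miR-205. These lists are described by their shares. Alternatives were other pseudocounts, filters and scalings, names collapsed, no trend, a replicate block, each library left out and the shallow libraries alone.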

Additional observations from a re-analysis of the deposited data

How the results depend on the processing

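No miRNA passed under any of the 17 settings of the limma fit, so 0 members were called throughout, and at an unadjusted p under 0.05 there were 0 to 5 miRNAs. The sign of the log2 fold change turned after rescaling to a common total (-0.18 for miR-103 and -0.37 for miR-107). With 1 library left out in turn miR-103 ran from -0.35 to 1.49 and miR-107 from -0.38 to 1.25. The difference of the summed share ran from -0.144 to 0.0782 percentage points and that of the log2 ratio from -0.45 to 0.87. The summed share differed by -9.82e-05 percentage points in the shallow libraries alone, by -0.0104 without the erythrocyte list in the denominator and, with both choices, added after the data were seen, by -0.0301. Where a library was left out, the remaining libraries of its group were assumed to vary like the other group. With the replicate block the log2 fold changes were 0.51 (SE 1.95) and 0.33 (SE 2.37), with 0 miRNAs called, and the share and ratio tests by sign flips gave p = 1 (exact, smallest possible p 0.25). The numbers are not shown to pair the samples. Deviations from the group means correlated at -0.25, 0.39 and -0.48 for equal numbers, and at 0.85 for milk 1 and milk exosome 3. Because each group mean includes a deep library, these correlations cannot decide whether equal numbers share an animal. The ratio was the same with the highest sequence of each name, because each name has 1. With 100 or more required in 3 libraries miR-107 was not tested. Depth limits the shallow libraries, where 1 to 32 reads stand behind a member.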
